A study of Mus musculus with 6 samples.

Results

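The 9 genes described here encode the receptors through which the autonomic nervous system acts on the heart, together with the main adenylyl cyclases of heart muscle. They are the beta adrenergic receptors Adrb1 and Adrb3, the alpha-1 adrenergic receptors Adra1a, Adra1b and Adra1d, the alpha-2A receptor Adra2a, the muscarinic acetylcholine receptor Chrm2, and the cyclases Adcy5 and Adcy6. They were chosen by name from the 36163 gene names on the array, and every probe that carried one of the names was taken, which gave 15 probes of 55681. Of these, 12 probes from 8 genes were bright enough to be tested.

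Heart tissue was taken from male C57BL/6 mice that had been placed at 4 weeks of age on either a high fat diet (HFD, 60% of calories from fat) or standard chow (normal diet, ND) and fed for 4 months. There were 3 hearts per diet, and the RNA of each heart was hybridised to a 1-colour Agilent array. The labels name no transgene or drug, and the diet was the only labelled difference between them. The labels give 3 numbered samples per diet and do not state that each was a separate animal, so the p-values measure the spread between these samples.

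In the heart, noradrenaline from sympathetic nerves and adrenaline from the blood bind beta-1 receptors, which act through the G protein Gs on adenylyl cyclase. The cyclic AMP that is made activates protein kinase A and raises heart rate and force. Acetylcholine from the vagus nerve binds the M2 receptor, which acts through Gi to lower cyclic AMP and opens a potassium channel of the atria and the pacemaker. Alpha-1 receptors act through Gq and phospholipase C, and receptor kinases and arrestins switch activated receptors off.

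Levels are given as log2 of the processed intensity minus the 75th percentile of the same array, so that 0 is the brightness of the probe at that percentile. A difference of 1 on this scale is a doubling. Levels of different probes cannot be set against each other, since each probe binds with its own strength, and only differences between hearts are read. Because bulk tissue was measured, fewer cells of a type and less RNA per cell cannot be told apart.

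The arrays were alike in quality. The software called 49.2% to 53.0% of probes well above background, the 75th percentile of intensity lay between 453 and 544, no spot was saturated, and arrays of the same diet correlated at 0.990 to 0.995. The 6 arrays shared 1 slide, where row 1 held HFD 1 and HFD 2 and row 2 held the other hearts. Since row 1 held no ND heart, a term for the slide row leaves HFD 3 against the ND hearts, as row 2 alone does. It cannot separate the row from the diet in HFD 1 and HFD 2. The label of heart tissue fits the 8 heart muscle markers, whose mean level was 8.64, 8.66 and 8.66 in the ND hearts and 8.61, 8.72 and 8.45 in the HFD hearts. HFD 2 stood apart in its other markers. The mean level of the 5 tested atrial muscle markers was 0.90 in HFD 2 and between 3.71 and 6.41 in the other hearts, and that of the 5 tested white adipocyte markers was −4.08 in HFD 2 and between −1.75 and −0.17 elsewhere. Myl7 and Sln, which define atrial muscle, were low in HFD 2, at −1.43 for the first, an atrial myosin light chain, and −2.14 for the second, sarcolipin. The results below are therefore also given without HFD 2 where that moves them.

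Before the values, the stretches of sequence that some of the probes read are shown, because a probe measures only the part of the transcript that it binds. All of them are 60-base probes, and no member probe shared 25 bases with a probe of another gene. Each sequence below is from the array files and runs 5′ to 3′. For Adrb1 and Chrm2 the capitals mark the codons of the only 1 of the 3 reading frames without a stop codon, and the Adrb3 probe, with 2 open frames, is in lower case.
Adrb1 A_51_P203827: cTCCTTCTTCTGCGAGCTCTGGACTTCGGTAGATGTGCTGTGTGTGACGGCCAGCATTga
Adrb3 A_55_P2105685: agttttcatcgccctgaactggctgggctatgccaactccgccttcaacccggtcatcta
Chrm2 A_55_P2055284: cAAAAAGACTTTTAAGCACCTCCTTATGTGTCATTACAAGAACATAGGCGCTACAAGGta

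The 2 probes of Adra1b are shown in part, with 30 bases each, because these are the probes with the largest difference between the diets and both hold a simple repeat, given in capitals. The repeat was 11 bases long in both, and 308 of the 55681 probes (0.553%) held a dinucleotide repeat at least as long.
Adra1b A_55_P2177721, bases 14 to 43: ggacttaagTCTCTCTCTCTtctctctctg
Adra1b A_55_P2100290, bases 1 to 30: gggcttgtACACACACACAagcacacacac

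Across the 9 genes, the alpha-1B receptor was the member with higher levels in every HFD heart, by 1.34-fold and 1.46-fold on its probes, and the adenylyl cyclase Adcy6 and 1 of the 2 Adrb1 probes were lower in every HFD heart. The alpha-1A receptor and Adcy5 had differences near 0, the M2 receptor was higher in 2 of the 3 HFD hearts than in any ND heart, and the alpha-2A receptor was not well above background. No member passed the limma test after adjustment over all 27590 tested probes, where 4 probes did (0.0145%), and the smallest adjusted p of a member was 0.204. At an unadjusted p below 0.05, 3 of the 12 member probes were called, beside 11.9% of all tested probes. These were 2 higher in HFD, both from Adra1b (5.24% of all tested probes were called in this direction), and 1 lower, from Adcy6 (6.63%). The hearts of the diets did not overlap for 4 of the 12, beside 19.0% of all tested probes, with 2 higher (7.92%) and 2 lower (11.1%). The 9 genes were chosen with earlier results of these data known, so these counts are a description. Of the 12 probes, 6 were higher and 6 lower in the HFD hearts, with a median log2 fold change of −0.01, the same as the −0.01 of all tested probes. The range ran from −0.34 to 0.55, and no member probe changed by as much as a doubling. With 3 hearts against 3, an exact two-sided permutation test of a single probe cannot give a p below 0.1.

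**Figure D1:**
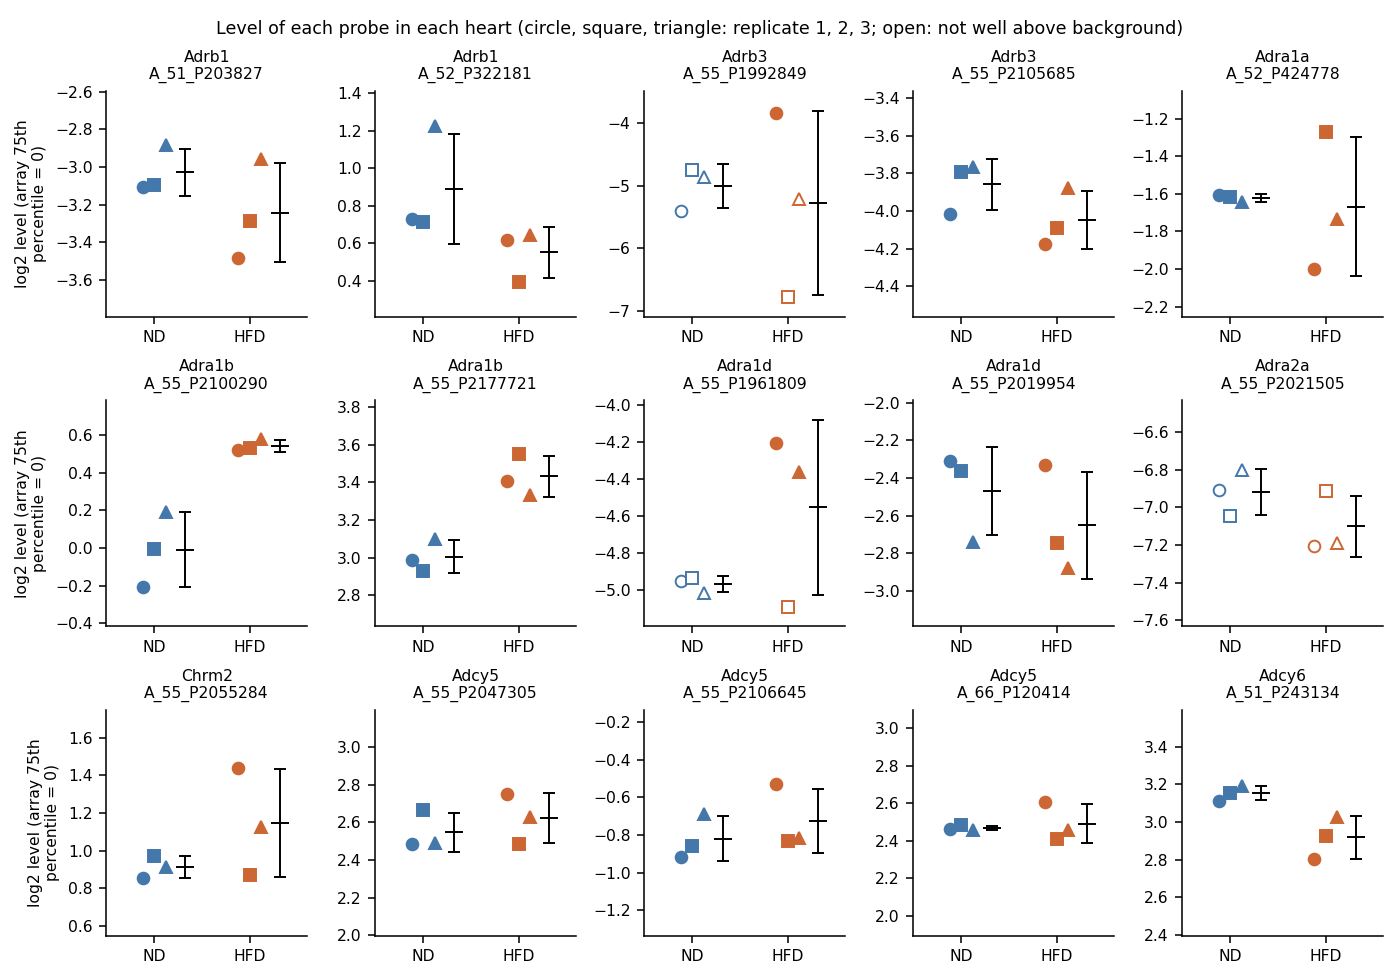
Log2 level (y axis, relative to the 75th percentile of the array) of each of the 15 probes in the 3 ND hearts (blue) and the 3 HFD hearts (orange), with the mean and SD of each diet in black. Both Adra1b probes lie higher in the 3 HFD hearts than in the 3 ND hearts, Adcy6 lies lower, and the Adra2a probe has only open points.

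Adrb1 encodes the beta-1 receptor, the main receptor for noradrenaline in heart muscle. Its brighter probe, A_52_P322181, starts at base 2353 of the transcript (chr19:56799215-56799274, plus strand, mm9). Its level was 0.73, 0.71 and 1.22 in the ND hearts and 0.62, 0.40 and 0.64 in the HFD hearts. All 3 HFD hearts lay below the lowest ND heart, but the gap between 0.71 and 0.64 was narrow, and ND 3 lay far above the other hearts. The log2 fold change was −0.34 (SE 0.16, 95% interval −0.73 to 0.06, adjusted p = 0.488). Without ND 3 it was −0.17, and without HFD 2 it was −0.26.

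The dimmer Adrb1 probe, A_51_P203827, starts at base 380 (chr19:56797242-56797301, plus strand), and is the one printed above. Its level was −3.11, −3.09 and −2.88 in the ND hearts and −3.48, −3.29 and −2.96 in the HFD hearts. The diets overlapped, since HFD 3 lay above 2 of the 3 ND hearts. The log2 fold change was −0.21 (SE 0.15, 95% interval −0.58 to 0.15, adjusted p = 0.635). HFD 1 and HFD 2, the hearts on row 1 of the slide, were the 2 lowest. With a term for the slide row, which leaves HFD 3 against the ND hearts, the value was 0.07.

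Adrb3 encodes the beta-3 receptor, best known from adipocytes. The probe A_55_P2105685, printed above (chr8:28337864-28337923, minus strand), was dim but well above background on all arrays, with processed intensities from 26.7 to 37.0. Its level was −4.01, −3.79 and −3.77 in the ND hearts and −4.18, −4.09 and −3.88 in the HFD hearts. HFD 3 lay within the range of the ND hearts and the other HFD hearts below it. The log2 fold change was −0.19 (SE 0.11, 95% interval −0.47 to 0.09, adjusted p = 0.579). It was −0.08 under normexp and −0.12 without HFD 1. With a term for the slide row or on row 2 alone, which both compare HFD 3 with the ND hearts, it was −0.02.

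The second Adrb3 probe, A_55_P1992849 (chr8:28336268-28336327, minus strand), was well above background only in HFD 1 and was not tested. Its level was −5.41, −4.75 and −4.86 in the ND hearts and −3.83, −6.78 and −5.20 in the HFD hearts. HFD 1 was the highest and HFD 2 the lowest of the 6 hearts on this probe, as they were for the mean of the white adipocyte markers, which was −1.75, −0.91 and −0.74 in the ND hearts and −0.17, −4.08 and −1.40 in the HFD hearts. The 5 tested adipocyte markers were each lowest in HFD 2, and the sixth, Lep, was not tested. The part of adipose tissue in the Adrb3 values was not tested.

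Adra1b encodes the alpha-1B receptor, which couples to Gq. Both of its probes were higher in HFD. On A_55_P2177721, which starts at base 2028 (chr11:43589067-43589126, minus strand), the level was 2.99, 2.93 and 3.10 in the ND hearts and 3.41, 3.55 and 3.33 in the HFD hearts. The lowest HFD heart lay above the highest ND heart. The mean was 3.01 ± 0.09 in ND and 3.43 ± 0.11 in HFD (SD, n = 3 each), a difference of 34.3%, and the log2 fold change was 0.43 (SE 0.09, 95% interval 0.21 to 0.64). In the limma fit the unadjusted p was 0.00296 and the adjusted p was 0.213, and the probe stood at rank 382 of the 27590.

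The second Adra1b probe, A_55_P2100290, starts at base 2948 (chr11:43588147-43588206, minus strand). Its level was −0.21, −0.01 and 0.19 in the ND hearts and 0.52, 0.53 and 0.58 in the HFD hearts. The HFD hearts lay close together, above a wider spread of ND hearts. The mean was −0.01 ± 0.20 in ND and 0.54 ± 0.03 in HFD, a difference of 46.5%, and the log2 fold change was 0.55 (SE 0.11, 95% interval 0.28 to 0.82). The unadjusted p of the limma fit was 0.00260 and the adjusted p was 0.204, at rank 351.

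The 2 Adra1b probes come from the same hearts and the same transcript and are not independent evidence of a diet effect. Both kept an unadjusted p below 0.05 under each of the 19 other settings tried, with log2 fold changes between 0.33 and 0.47 and between 0.45 and 0.65. Neither passed the adjusted threshold under any of them, and the adjusted p ran from 0.0875 to 0.642 and from 0.107 to 0.634. Without HFD 2 the values were 0.37 and 0.56. The 275 other tested probes with a dinucleotide repeat of 11 bases or more had a median log2 fold change of −0.10, with a range from the 10th to the 90th percentile of −0.29 to 0.20. Of these, 3 lay at or above the value of the first Adra1b probe and 1 at or above that of the second. In both Adra1b probes the repeat in capitals is followed by further repeat bases, for which the 275 were not matched. The part of the repeat in the Adra1b values was not tested.

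The mean level of the vascular smooth muscle markers, a cell type that also carries alpha-1 receptors, was 3.78, 3.72 and 4.02 in ND and 4.92, 3.51 and 3.98 in HFD. Of these 6 markers, 4 were higher and 2 lower in HFD. Their median log2 fold change was 0.38, and Acta2, smooth muscle actin, was at 0.72. HFD 1 had the highest smooth muscle mean and HFD 2 the lowest, while the highest Adra1b level was in HFD 2 on A_55_P2177721, 3.55, and in HFD 3 on A_55_P2100290, 0.58. The other lists overlapped between the diets too, apart from the erythroid markers, which were at 3.20, 3.98 and 3.26 in ND and 2.82, 2.82 and 2.41 in HFD. The part of the smooth muscle and erythroid markers in the Adra1b values was not tested.

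Adra1a encodes the alpha-1A receptor of heart muscle. On its probe, A_52_P424778 (chr14:67352013-67352072, plus strand), the level was −1.61, −1.61 and −1.64 in the ND hearts and −2.00, −1.27 and −1.73 in the HFD hearts. The ND hearts were nearly equal, with an SD of 0.02, while HFD 1 lay below and HFD 2 above all of them, with an SD of 0.37 in HFD. The log2 fold change was −0.05 (SE 0.18, 95% interval −0.49 to 0.40, adjusted p = 0.947), and without HFD 1 it was 0.12. The 2 hearts that lay furthest apart in the atrial markers, at 6.41 and 0.90, were also the ones furthest apart here, in the opposite order. The part of atrial tissue in the Adra1a values was not tested.

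Adra1d encodes the alpha-1D receptor, known mainly from blood vessels. Its tested probe, A_55_P2019954 (chr2:131371198-131371257, minus strand), had levels of −2.31, −2.37 and −2.74 in the ND hearts and −2.33, −2.74 and −2.88 in the HFD hearts. The diets overlapped widely. The log2 fold change was −0.18 (SE 0.18, 95% interval −0.63 to 0.27, adjusted p = 0.746), and it ran from −0.41 to −0.07 over the other settings.

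The second Adra1d probe, A_55_P1961809 (chr2:131371721-131371780, minus strand), was well above background in HFD 1 and HFD 3 only and was not tested. Its level was −4.95, −4.94 and −5.02 in the ND hearts and −4.20, −5.09 and −4.36 in the HFD hearts. HFD 2 read lower than all 3 ND hearts, and no fold is given because the ND hearts and HFD 2 were not well above background.

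Adra2a encodes the alpha-2A receptor, which sits on sympathetic nerve endings and limits the release of noradrenaline. Its probe, A_55_P2021505 (chr19:54123363-54123422, plus strand), was well above background on none of the arrays. The readings were −6.91, −7.05 and −6.80 in the ND hearts and −7.20, −6.91 and −7.19 in the HFD hearts and have no order. The other alpha-2 receptors were measured, with Adra2b at a mean of −1.77 ± 0.10 in ND and −2.28 ± 0.47 in HFD and Adra2c at −1.77 in ND and −1.99 in HFD. Their log2 fold changes were −0.51 (SE 0.23, adjusted p = 0.469) and −0.22 (SE 0.10, adjusted p = 0.456), and the hearts of the diets overlapped for both.

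Chrm2 encodes the M2 receptor, through which the vagus nerve slows the heart. Its 1 probe, A_55_P2055284, printed above, starts at base 1380 (chr6:36474550-36474609, plus strand). The level was 0.86, 0.97 and 0.91 in the ND hearts and 1.44, 0.87 and 1.13 in the HFD hearts. The ND hearts were close together, with an SD of 0.06, HFD 1 and HFD 3 lay above them, and HFD 2 lay among them. The log2 fold change was 0.23 (SE 0.15, 95% interval −0.13 to 0.60, adjusted p = 0.604).

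The Chrm2 value depended on which HFD heart was left out. It was 0.37 without HFD 2 (unadjusted p = 0.0270 in the limma fit, adjusted p = 0.350) and 0.09 without HFD 1 (unadjusted p = 0.454, adjusted p = 0.788). With the mean level of the atrial markers as a covariate it was 0.28 (unadjusted p = 0.0352, adjusted p = 0.299), and over all 19 other settings the adjusted p ran from 0.299 to 0.901. Atrial muscle is rich in M2 receptors, and within HFD the order of the hearts was the same for Chrm2 and for the atrial marker mean, HFD 1 at 6.41, HFD 3 at 5.52 and HFD 2 at 0.90. Within ND the orders differed, since ND 3 had the highest atrial mean, 6.12, and ND 2 the highest Chrm2 level. The covariate is only a setting of the fit, and the part of atrial tissue in the Chrm2 values was not tested. The other muscarinic receptor genes, Chrm1, Chrm3, Chrm4 and Chrm5, had no tested probe.

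**Figure D2:**
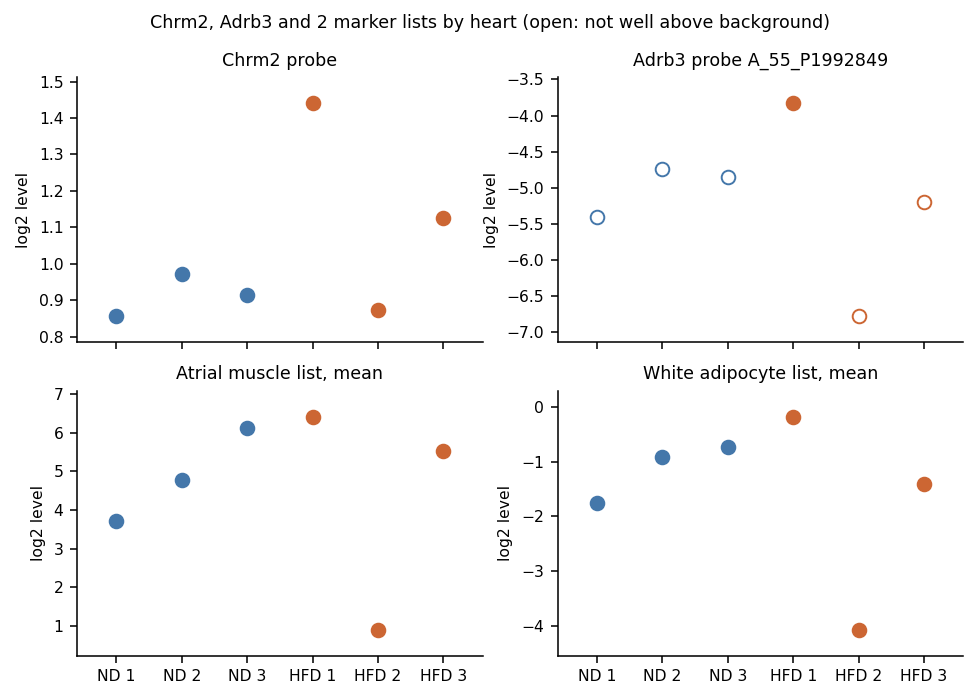
Log2 level by heart (ND blue, HFD orange) of the Chrm2 probe and the less bright Adrb3 probe (top) and the mean of the tested atrial and white adipocyte markers (bottom). HFD 2 has the lowest mean of both marker lists, 0.90 and −4.08, the lowest Adrb3 reading, −6.78, and the lowest Chrm2 level within HFD, 0.87.

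The adenylyl cyclases Adcy5 and Adcy6 make most of the cyclic AMP in heart muscle. Adcy6 was lower in every HFD heart, while Adcy5 had differences near 0. The single Adcy6 probe, A_51_P243134, had levels of 3.11, 3.15 and 3.19 in the ND hearts and 2.80, 2.92 and 3.03 in the HFD hearts. All 3 HFD hearts lay below the lowest ND heart. The mean was 3.15 ± 0.04 in ND and 2.92 ± 0.11 in HFD, and the log2 fold change was −0.23 (SE 0.08, 95% interval −0.43 to −0.04), which is 1.18-fold lower. The limma fit gave an unadjusted p of 0.0276 and an adjusted p of 0.362. The files place only 15 bases of this probe on mm9 (chr15:98420404-98420418, minus strand). The unadjusted p was below 0.05 under 11 of the 19 other settings. Without HFD 2 the value was −0.24, and with a term for the slide row, which leaves HFD 3 against the ND hearts, it was −0.13.

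Adcy5 was measured by 3 probes that lie within a short stretch of chromosome 16. On A_55_P2047305 (chr16:35304398-35304457, plus strand) the level was 2.48, 2.67 and 2.49 in ND and 2.75, 2.48 and 2.63 in HFD. On A_66_P120414 (chr16:35304041-35304100) it was 2.46, 2.48 and 2.46 in ND and 2.61, 2.41 and 2.46 in HFD. On A_55_P2106645 (chr16:35304551-35304610) it was −0.92, −0.86 and −0.69 in ND and −0.53, −0.83 and −0.81 in HFD. The diets overlapped on all 3 probes, and HFD 1 had the highest level of the 6 hearts on each. The log2 fold changes were 0.07, 0.02 and 0.09, with 95% intervals of −0.17 to 0.32, −0.17 to 0.21 and −0.18 to 0.37, and adjusted p between 0.792 and 0.937. For the 2 bright probes these intervals hold no change larger than 0.32 in either direction.

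**Figure D3:**
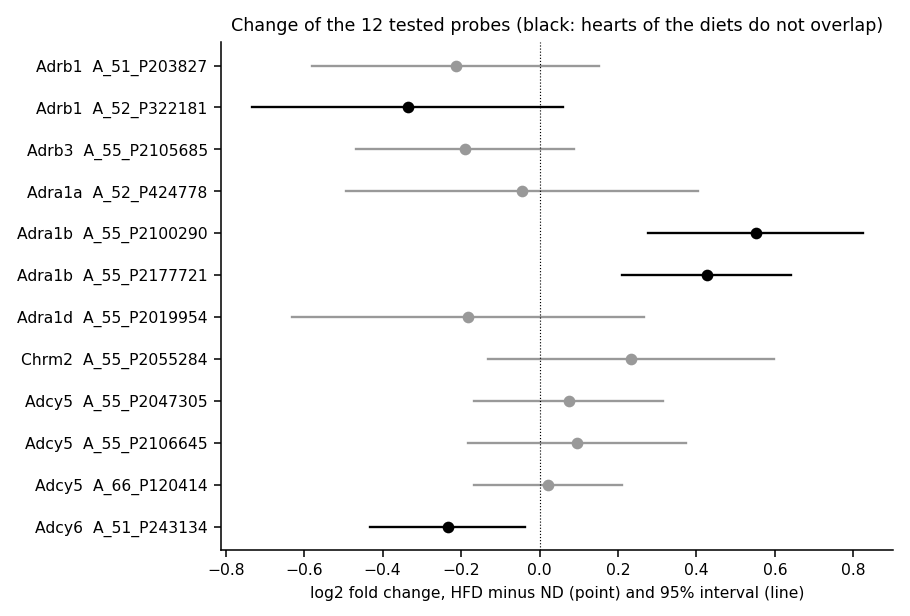
Log2 fold change of HFD minus ND (x axis) for the 12 tested probes, with its 95% interval from the limma fit. The intervals of both Adra1b probes lie above 0 and that of Adcy6 lies below 0, while the other 9 cross it.

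The differences between members within a heart were compared next, since the constant subtracted from each array cancels in them. The level of Adra1b (A_55_P2177721) minus that of Adrb1 (A_52_P322181) was 2.26, 2.22 and 1.87 in the ND hearts and 2.79, 3.16 and 2.69 in the HFD hearts. Every HFD heart lay above every ND heart. This was fixed in advance, since the diets did not overlap on either probe, in opposite directions. The mean difference was 2.12 ± 0.21 in ND and 2.88 ± 0.25 in HFD (SD, n = 3), a shift of 0.76. The exact permutation p of 0.1, the smallest that 3 against 3 can give, was fixed in the same way. It adds nothing to the values of the probes themselves. The shift lay between 0.57 and 0.86 over the other settings.

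The level of Adcy5 (A_55_P2047305) minus that of Adcy6 was −0.63, −0.49 and −0.70 in ND and −0.06, −0.44 and −0.40 in HFD. The HFD hearts again lay above the ND hearts, HFD 2 by a narrow gap. The mean was −0.61 ± 0.11 in ND and −0.30 ± 0.21 in HFD, a shift of 0.31 with an exact permutation p of 0.1 and a range of 0.19 to 0.38 over the other settings. Both pairs were chosen with earlier results of these data known, so the shifts are a description of how unequally the members changed.

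**Figure D4:**
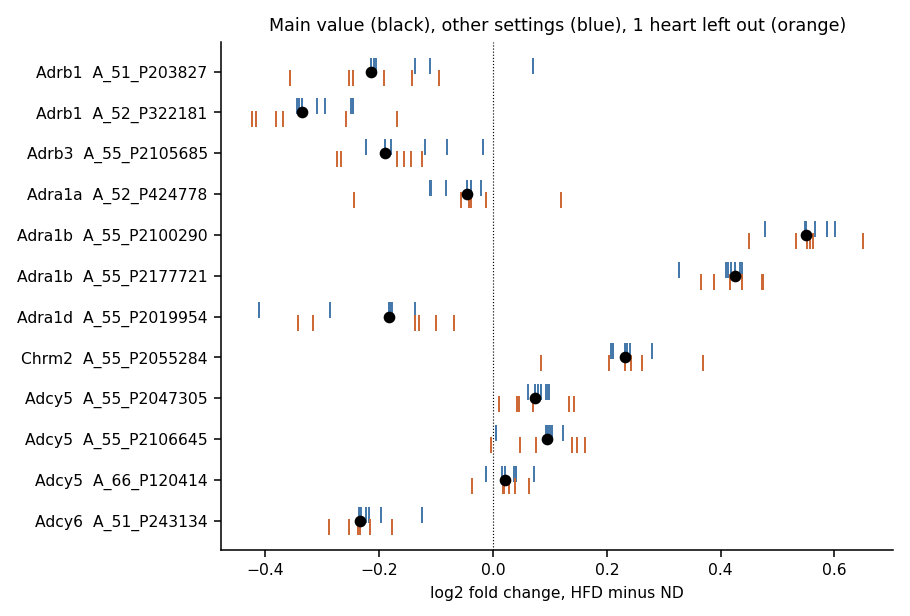
Log2 fold change of HFD minus ND (x axis) for the 12 tested probes as reported (black), under the other settings (blue) and with 1 heart left out (orange). Both Adra1b probes and Adcy6 keep their sign throughout, while 1 Adrb1 probe, Adra1a and 2 of the 3 Adcy5 probes cross 0.

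The rest of the pathway was read from 12 lists with 98 genes, of which 89 had a tested probe, each gene by its brightest tested probe. No gene of the lists passed the adjusted test. At an unadjusted p below 0.05, 13 of the 89 genes were higher in HFD (14.6%, beside 4.97% of the 20571 genes tested in the same way) and 8 were lower (8.99%, beside 7.01%). The lists were chosen with earlier results of these data known, so these shares are a description and not a result about the pathway. The 13 include Slc22a3, which entered the test only through the HFD hearts. The count of 21 in both directions was 10 with a term for the slide row and 12 when ND 1 was left out. The median log2 fold change of the 89 was 0.01 (−0.01 for all genes), with 46 higher and 43 lower.

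Among the receptor kinases and arrestins, Grk5, a kinase that phosphorylates activated beta receptors and also acts in the nucleus of heart muscle cells, had the smallest p of all the lists. Its level was 1.49, 1.49 and 1.62 in the ND hearts and 2.25, 2.31 and 2.25 in the HFD hearts. The 3 HFD hearts lay far above the 3 ND hearts. The mean was 1.53 ± 0.08 in ND and 2.27 ± 0.03 in HFD, and the log2 fold change was 0.74 (SE 0.07), a level 66.5% higher. The limma fit gave an adjusted p of 0.0745, which missed the threshold. It passed under normexp background correction (adjusted p = 0.0263) and with robust variances that follow an intensity trend (adjusted p = 0.0122), and over all settings ran from 0.0122 to 0.349.

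The other genes of that list had small differences, apart from Grk4, a kinase found mainly outside the heart, at −0.38 (SE 0.09, adjusted p = 0.252) on its brighter probe and 0.01 on its second probe. Adrbk1, which encodes the main beta receptor kinase of the heart, was at −0.0007 (SE 0.07, adjusted p = 0.998), and Arrb1 and Arrb2, the beta-arrestins, at 0.01 and −0.15.

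Among the G protein alpha subunits, Gnas, the Gs subunit that couples beta receptors to cyclase, was at 0.01 (SE 0.08), and Gnaq and Gna11, the Gq partners of alpha-1 receptors, were at 0.18 (SE 0.09) and −0.03 (SE 0.07). Gnai2, a Gi subunit, was at 0.06 (SE 0.08). The named gene of this list was Gna12, at 0.30 (SE 0.07, adjusted p = 0.248). Of the 8 other adenylyl cyclases, 5 were tested and 4 of these were lower in HFD. Adcy4 was at −0.21 (SE 0.07, adjusted p = 0.325) and did not overlap between the diets.

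Among the phosphodiesterases, which break down cyclic AMP, 5 of 10 genes had an unadjusted p below 0.05. Of these, 3 were higher in HFD, with Pde4b at 0.45 (SE 0.16), Pde4d at 0.33 (SE 0.12) and Pde3b at 0.27 (SE 0.07), with adjusted p from 0.271 to 0.387. Pde4b and Pde4d are the cyclic AMP-specific forms of heart muscle, and their second probes were at 0.48 and 0.43, with another, dim Pde4b probe at 0.0027. Pde1c, which is activated by calcium and calmodulin, was at −0.53 (SE 0.14, adjusted p = 0.264), with its other probes at −0.63 and −0.10, and Pde2a, which cyclic GMP stimulates, was at −0.20 (SE 0.07, adjusted p = 0.352).

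The protein kinase A genes had small differences, with Prkar1a, a regulatory subunit, at −0.28 (SE 0.11, adjusted p = 0.403) on its brighter probe and −0.09 on the other. All 6 A-kinase anchoring proteins were higher in HFD, by 0.02 to 0.43. Only Akap12, a scaffold that binds beta receptors, had an unadjusted p below 0.05, at 0.43 (SE 0.10, adjusted p = 0.237), with its second probe at 0.76. Of the other cyclic AMP effectors, 6 of 7 were lower, and Bves, a cyclic AMP-binding membrane protein, had the smallest p, at −0.17 (SE 0.07, adjusted p = 0.458).

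In the Gq branch downstream of alpha-1 receptors, 4 of 10 genes were higher and 6 lower. Plcb1, a phospholipase C, was at 0.36 (SE 0.14, adjusted p = 0.392), and Itpr1, an intracellular calcium release channel, at 0.25 (SE 0.07, adjusted p = 0.300). Plcb4, another phospholipase C, was at −0.30 (SE 0.06, adjusted p = 0.222), and its 3 other probes were also below 0, from −0.19 to −0.05.

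Of the substrates of protein kinase A in heart muscle, 3 of 8 were higher and 5 lower, and Fxyd1, phospholemman, which regulates the sodium pump, was at −0.18 (SE 0.07, adjusted p = 0.415). Pln, phospholamban, was at −0.11 (SE 0.09), and Ryr2, the calcium release channel of the sarcoplasmic reticulum, at 0.04 (SE 0.07). Both subunits of the muscarinic potassium channel were higher in HFD. Kcnj5 had levels of 4.06, 4.07 and 4.11 in ND and 4.60, 4.31 and 4.61 in the HFD hearts, and its log2 fold change was 0.43 (SE 0.10, adjusted p = 0.248). Kcnj3 was at 0.34 (SE 0.20, adjusted p = 0.559), with the diets overlapping. In both of them HFD 2 was the lowest of the HFD hearts, as it was for Chrm2 and the atrial markers. The part of atrial tissue in the values of the channel was not tested.

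Among the genes of transmitter synthesis and clearance, 7 of 13 tested were higher and 6 lower. Th, tyrosine hydroxylase, which makes the precursor of noradrenaline, was at −0.25 (SE 0.09, adjusted p = 0.384), while Dbh, which makes noradrenaline from dopamine, was at 0.46 (SE 0.27, adjusted p = 0.567). Maob, which degrades amines, was at 0.36 (SE 0.08, adjusted p = 0.248), and Slc18a3, the vesicular acetylcholine transporter, at 0.30 (SE 0.11, adjusted p = 0.381). Slc22a3, a transporter that clears noradrenaline outside neurons, had levels of −5.10, −4.48 and −5.42 in the ND hearts and −4.09, −4.45 and −3.82 in the HFD hearts. It is 1 of the 13 genes counted as higher above, but only 1 of the 3 ND hearts was well above background, so it entered the test through the HFD hearts, where it was higher, and its fold and p are not read. Slc6a2, the noradrenaline transporter of the nerve ending, and Slc5a7, the choline transporter, had no tested probe. Of 9 nerve and glia markers, 6 were tested, and their mean level was 0.09, 0.15 and 0.33 in ND and 0.50, −0.06 and 0.46 in HFD, so the diets overlapped.

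**Figure D5:**
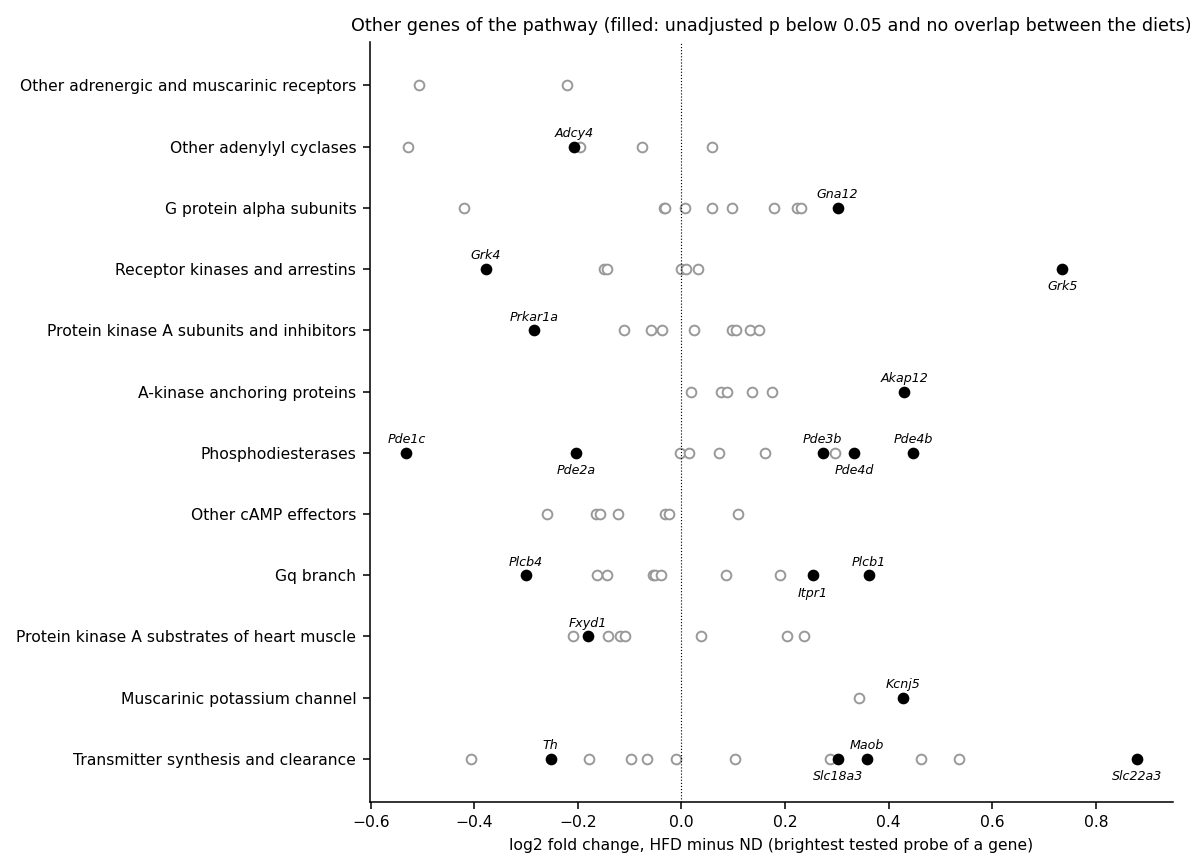
Log2 fold change of HFD minus ND (x axis) for the 89 tested genes of the 12 pathway lists, 1 point per gene. Filled points have an unadjusted p below 0.05 and no overlap between the diets, and Grk5 lies at 0.74. Slc22a3, furthest to the right, was well above background in only 1 of the 3 ND hearts.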

How the data were processed

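Total RNA from 6 mouse hearts was labelled with Cy3 and hybridised to Agilent 1-colour arrays. The deposited scanner files, written by Agilent Feature Extraction (version 10.7 in the submitters' processing notes), hold the processed intensity of each spot after background subtraction by the software, with no normalization between arrays. A second table by the authors holds deposited log2 values, which ranked the probes of each array as its own scanner file did and differed from quantile-normalized intensities by a median of at most 0.00428. It was used as an alternative. Every column of sample values was used.

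From the intensities, log2 values minus the 75th percentile of each array were computed. Spots with an outlier flag of the software (127 to 190 per array) were left out and spots of 1 probe were averaged. A probe was tested where all arrays of 1 diet or both had it well above background and it was measured on at least 2 arrays per diet, which left 27590 of 55681. HFD and ND were compared with limma 3.58.1 in R 4.3.3 (lmFit and eBayes, two-sided, without covariates), with Benjamini-Hochberg adjustment over all tested probes and a threshold of 0.05. The computation was checked on simulated data. The number of arrays limits the precision.

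The 9 genes, the pathway and marker lists and the pairs compared within a heart were chosen with earlier results of these data known. All members were named. Of the pathway lists, genes with an unadjusted p below 0.05 and no overlap between the diets were named, plus the gene with the smallest p where a list had none. Genes given beyond this rule (Adra2b, Adrbk1, Arrb1, Arrb2, Gnas, Gnaq, Gna11, Gnai2, Pln, Ryr2, Kcnj3, Dbh) were chosen for their known role after the values were seen. For likeness to Adrb1 and Chrm2, the 3 named genes with the highest Pearson correlation were taken, of which 1 is not reported here. Alternatives were quantile normalization, normexp with an offset of 50, other filters, the authors' table, the methods' t-test with equal variances, array weights, robust variances with an intensity trend, a block for the replicate number, the slide row as a term, row 2 alone, the atrial marker mean as a covariate, outlier spots kept and each heart left out. Probe coordinates are those of the array files (mm9). The place of probes in exons or untranslated regions was not analysed here.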

Additional observations from a re-analysis of the deposited data

How the results depend on the processing

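The 4 probes past the adjustment in the limma fit were 2 under quantile normalization, 2 with the authors' table, 2 with the atrial covariate, 7 with array weights, 8 by the methods' t-test, 33 on slide row 2 alone, 40 with normexp and 81 with robust variances and an intensity trend. They were 0 (limma) without a filter on dim probes, with the slide row as a term and with the replicate block, where 3438, 2136 and 3020 probes had an unadjusted p below 0.05. With 1 heart left out they ranged from 0 to 5, and were 0 without ND 1, HFD 2 or HFD 3. The 21 pathway genes at an unadjusted p below 0.05 were 12 without the filter, 10 with the slide row, 12 on row 2 alone and 12 to 23 with 1 heart left out (12 without ND 1, 13 without ND 2). The 3 member probes were 2 to 4 under every setting, with 4 under the replicate block, where Adrb1 A_52_P322181 had an unadjusted p = 0.0468 in limma at −0.34. No member passed the adjusted threshold under any setting. The replicate numbers shared by the diets did not pair the hearts (correlations of deviations −0.15, 0.15 and 0.19, with 3 of 6 hearts closest to their own number). The sign turned for Adrb1 A_51_P203827 with the slide row and on row 2 alone (both 0.0701) and for Adcy5 A_66_P120414 under the same settings (−0.0119). With 1 heart left out, the ranges that crossed 0 were −0.0366 to 0.0634 for Adcy5 A_66_P120414, −0.0029 to 0.1612 for Adcy5 A_55_P2106645 and −0.244 to 0.1202 for Adra1a, each with the sign turned without HFD 1. The cause was not tested. Row 2 alone held 1 HFD heart, whose spread was taken to be like that of the ND hearts. The fit with the slide row as a term draws its difference from the same HFD heart, so these settings are not separate checks. Dim probes of Adrb3, Adra1d and Adra2a limit what can be said of these genes.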

Other observations

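Over the 6 hearts, the 25923 other probes that were well above background on all arrays were set beside Adrb1 and Chrm2 by the Pearson correlation of their levels. The genes given here were picked from the probes of named genes, while the counts of r above 0.95 cover all 25923 probes. For Adrb1 (A_52_P322181), probes of Abcc8, a subunit of potassium channels closed by ATP, and Gtf3c5, a general transcription factor subunit, were among the most alike (r = 0.989 and 0.988), and 41 probes had r above 0.95. For Chrm2 they were Pnpla1, a lipid enzyme known from skin, Ltbp1, which binds latent TGF-beta, and Wdr20a (r = 0.997, 0.995 and 0.991), with 74 probes above 0.95. With 6 hearts and so many probes these values are a description, and the hearts share a slide.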
